A study of Mus musculus with 6 samples.

Results

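The proteasome genes described here were the 44 genes on the array whose symbols begin with Psma, Psmb, Psmc, Psmd, Psme, Psmf or Psmg, leaving out Psmb8, Psmb9, Psmb10 and Psme1, the subunits that are induced by interferon gamma. They were 44 of the 12393 genes that had a probe set naming a single gene, and where a gene had several, the brightest on average over the 6 arrays (on the log2 scale) was taken. A probe set shared by Psme2 and a copy of it, the only one with a fitting name but several symbols, was not used. The rule used names only, and 3 of the genes it took are not subunits of the general proteasome: Psma8 encodes an alpha subunit used in testis, and Psmc3ip and Psme3ip1 encode proteins named for binding Psmc3 and Psme3. A further 7 genes, Psmd5, Psmd9, Psmd10 and Psmg1 to Psmg4, encode chaperones that act during assembly. The 20S and 19S particles themselves were represented by 31 genes, made up of 7 alpha ring genes, 7 beta ring genes, 6 ATPase genes and 11 non-ATPase genes.

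The 26S proteasome is the protease that degrades proteins tagged with ubiquitin. Its 20S core is a barrel of stacked rings, with outer rings of alpha subunits that form the gate and inner rings of beta subunits, of which Psmb5, Psmb6 and Psmb7 carry the proteolytic sites. The 19S particle caps the barrel: its base holds a ring of ATPases that unfold substrates, and its lid holds Psmd14, which removes the ubiquitin chain. Growing haematopoietic cells express these genes broadly, and their products have to be made in matched amounts because each subunit has a fixed place in the complex.

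The study profiled Ba/F3 cells, a mouse pro-B cell line whose growth depends on interleukin 3 (IL3) or on an active kinase in its place. One line carried the empty pMSCV vector and was kept in IL3. The other lines expressed ETV6-PDGFRB or FIP1L1-PDGFRA, fusions that join the kinase domain of a platelet-derived growth factor receptor to another protein, and had been selected to grow with no IL3. Each line was sampled untreated and after 4 h in 100 nM imatinib (Glivec), a drug that inhibits the PDGF receptor kinases, so there were 6 groups with 1 array each, all from cells in medium with 10% serum and hybridised from 5 µg of RNA. The fusion, the loss of IL3 and the selection for growth cannot be told apart when a fusion line is set against the IL3 vector line, and the labels do not say whether a line was 1 clone or a pool. With no repeated culture, the test of imatinib treats ETV6-PDGFRB and FIP1L1-PDGFRA as replicates of 1 kind of line, a PDGFR fusion line, and every comparison of single arrays is given with no test.

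The arrays had been scaled by the submitters to nearly the same trimmed mean, from 100.04 to 100.05 signal units, and their small number limits the precision. A floor at the median probe set, 20.1 signal units, was used as background. The pro-B label was borne out in part: of 13 pro-B markers measured, 4 (Cd79a, Cd79b, Igll1 and Ptprc) were above that floor on any array, and the other 9, among them Ebf1, Pax5, Rag1 and Vpreb1, were below it on all 6 arrays. The 3 genes of the IL3 receptor chains were above the floor on every array. Markers of pro-B and of other cell types moved with imatinib in the fusion lines. The summed pro-B signal above the floor went from 735 to 894 in ETV6-PDGFRB and from 715 to 1033 in the FIP1L1-PDGFRA line. It was 716 and 763 in the IL3 vector line. Most of each pro-B sum was Ptprc. Ptprc signals were 624 and 728 in ETV6-PDGFRB, 627 and 892 in FIP1L1-PDGFRA, and 606 and 660 in IL3 vector cells. Igll1 entered the sum in IL3 vector cells alone, at 21.5 and 21.1, close to the floor. The mast and basophil sum (4 of 7 above the floor on any array) went from 1507 to 1958 and from 471 to 838. It was 910 and 745 in the IL3 vector line. These sums cover different genes, as Mcpt8 passed the floor in ETV6-PDGFRB cells alone and Hdc in the fusion lines alone. Within the first sum, Hdc was lower with imatinib, from 64.9 to 44.9, and Cpa3, Gata2 and Mcpt8 were higher. The erythroid factor Klf1, the 1 of 2 measured erythroid markers above the floor, went from 313 to 943 and from 132 to 770.1, against 185 and 180 in IL3 vector cells. Myeloid markers (2 of 5 above the floor) summed to 92.5 and 80.2, 302 and 206, and 315 and 338 in the same order of lines, fibroblast Acta2 (1 of 3) gave 462 and 298, 56.2 and 39.8, and 41.4 and 36.6, and the T and NK marker Cd3g (1 of 3) passed the floor in ETV6-PDGFRB cells alone, at 21.9 and 20.5. The part of these markers in the results that follow was not tested.

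All 44 proteasome genes were above the floor on all 6 arrays. In limma's moderated test of imatinib against no drug in the fusion lines, with the line as a block and Benjamini-Hochberg adjustment over 6808 genes, 3 of the 44 fell (Psme3, Psmd12 and Psmg3), none rose, and 41 did not pass an adjusted p of 0.05. Over all 6808 genes, 12.4% fell and 13.5% rose, so the count of members that fell, 6.82% of the 44, was below the array's own share; that difference was not tested. At an unadjusted p under 0.05, 8 members were lower (18.2%, against 19.1% of all genes) and 2 higher (4.55%, against 23.5%). The median log2 change of the members was -0.033, against 0.043 over all genes tested, and the standard errors of their changes ran from 0.084 to 0.14, so a value that did not pass does not show that a gene kept its level. With the arrays scaled to the hybridisation controls instead, all genes shifted by -0.22 on the log2 scale and 13 members fell (29.5%, against 27.7% of all genes). With either fusion line left out, or with no filter on dim genes, no member passed; without the filter the adjusted p was 0.163 for Psme3, 0.0992 for Psmd12 and 0.083 for Psmg3. Fewer cells of a type and less RNA per cell cannot be told apart in these bulk samples.

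**Figure D1:**
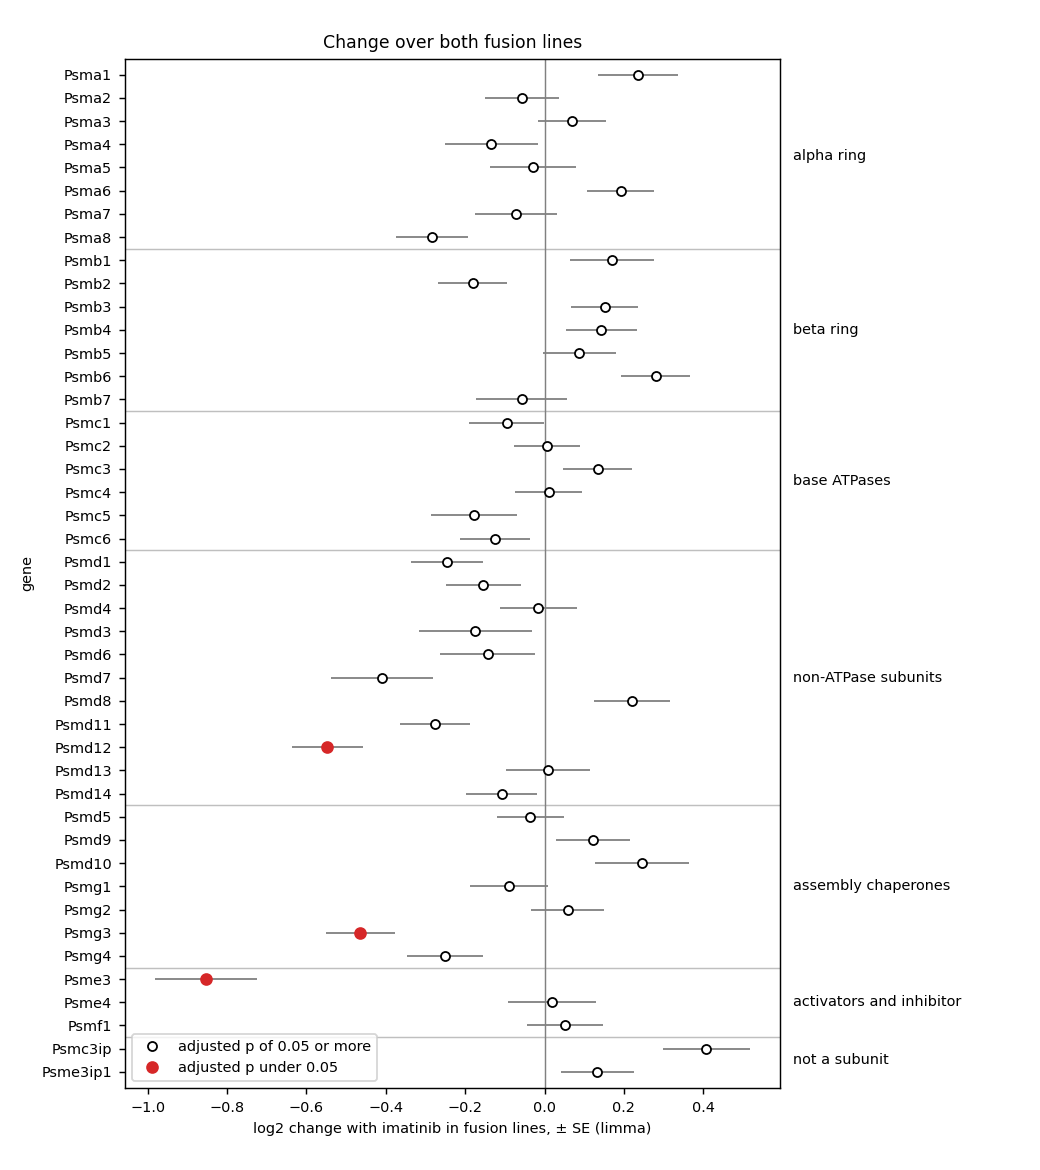
Log2 change of each of the 44 genes with imatinib in the fusion lines, ordered by role, as fitted by limma, with bars of 1 standard error; filled red points had an adjusted p under 0.05. Psme3, Psmd12 and Psmg3 lie at -0.85, -0.55 and -0.46, and the other 41 genes lie between -0.41 and 0.41.

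Psme3 encodes PA28 gamma, a nuclear cap of the 20S core that acts without ATP. Psme3 signals were 212 untreated and 176 treated in the IL3 vector line, 179 and 107 in the ETV6-PDGFRB line, and 198 and 102 in the FIP1L1-PDGFRA line. Both treated fusion arrays lay below the other 4 arrays, and the IL3 vector line was also lower with the drug, by 0.27 on the log2 scale. In single lines the drop was 1.67-fold in ETV6-PDGFRB and 1.95-fold in the FIP1L1-PDGFRA line. In the limma test Psme3 fell by 0.85 ± 0.13 (SE) on the log2 scale (adjusted p = 0.0135). The other measured Psme3 probe set had signals of 179, 162, 138, 70.4, 145 and 123 in the same order of arrays. It was also lowest on the treated fusion arrays, but the FIP1L1-PDGFRA ratio was -0.24 against -0.97 in ETV6-PDGFRB cells on the log2 scale, and its limma change of -0.61 ± 0.19 (SE) did not pass (adjusted p = 0.0696).

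Psmd12 (Rpn5) is a scaffold subunit of the lid. Psmd12 signals were 539 untreated and 512 treated in the IL3 vector line, 497 and 328 in the ETV6-PDGFRB line, and 579.6 and 411 in the FIP1L1-PDGFRA line. The treated fusion arrays were the lowest 2 of the 6, and the IL3 vector pair differed by 0.073 on the log2 scale. The ratio was 1.51-fold lower with imatinib in ETV6-PDGFRB and 1.41-fold lower in the FIP1L1-PDGFRA line, and the limma change was -0.55 ± 0.090 (SE) with an adjusted p of 0.0159. Without the line as a block, the limma adjusted p of Psmd12 was 0.0697 and those of Psme3 and Psmg3 still passed.

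Psmg3 (PAC3) is a chaperone that, with Psmg4, helps the alpha ring to form. Psmg3 signals were 294 untreated and 307 treated in the IL3 vector line, 278 and 203 in the ETV6-PDGFRB line, and 279 and 201 in the FIP1L1-PDGFRA line. The treated fusion arrays were alike and lay below the other 4, which spanned 278 to 307. Both fusion lines gave ratios close together, 1.37-fold and 1.39-fold lower, and the limma change was -0.46 ± 0.086 (SE) with an adjusted p of 0.0209.

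Whether the fusion lines responded differently from the IL3 vector line was tested with an interaction term, which had 1 residual degree of freedom. No member and none of the 6808 genes passed in that limma fit. At an unadjusted p under 0.05 there were 1179 genes and 3 members, Psmc3ip, Psmg3 and Psme3, with log2 differences of 0.63 ± 0.19, -0.53 ± 0.19 and -0.58 ± 0.21 (SE). The lowest adjusted p of a member was 0.239, so the lower signals cannot be called particular to the fusion lines.

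The promoters of the 3 genes that fell, and of Psmd11, whose probe sets disagreed (described with the lid), are shown because each holds the core of the motif bound by ETS family factors. They are RefSeq sequences of GRCm38.p6, from 250 bases before the annotated start to 30 after it, written 5′ to 3′ on the gene's strand, with matches to CCGGAAG on either strand in capitals. They lie at chr11:101315963-101316242 (plus strand), chr11:107479278-107479557 (plus strand), chr5:139826865-139827144 (minus strand) and chr11:80428365-80428644 (plus strand).
Psme3: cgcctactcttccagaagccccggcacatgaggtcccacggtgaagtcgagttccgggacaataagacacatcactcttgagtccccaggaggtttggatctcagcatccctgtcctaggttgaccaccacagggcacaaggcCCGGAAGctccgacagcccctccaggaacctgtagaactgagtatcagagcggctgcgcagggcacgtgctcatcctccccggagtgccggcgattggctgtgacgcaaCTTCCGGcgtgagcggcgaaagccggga
Psmd12: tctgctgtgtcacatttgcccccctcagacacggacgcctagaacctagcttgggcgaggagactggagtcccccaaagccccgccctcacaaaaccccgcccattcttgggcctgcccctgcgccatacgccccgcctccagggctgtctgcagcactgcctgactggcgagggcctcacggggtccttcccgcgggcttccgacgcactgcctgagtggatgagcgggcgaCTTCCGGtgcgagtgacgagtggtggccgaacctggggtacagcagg
Psmg3: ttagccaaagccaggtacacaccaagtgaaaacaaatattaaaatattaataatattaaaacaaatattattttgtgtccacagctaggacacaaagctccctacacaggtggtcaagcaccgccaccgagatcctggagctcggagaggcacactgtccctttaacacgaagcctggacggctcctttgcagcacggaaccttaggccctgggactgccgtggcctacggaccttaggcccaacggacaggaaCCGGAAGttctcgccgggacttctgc
Psmd11: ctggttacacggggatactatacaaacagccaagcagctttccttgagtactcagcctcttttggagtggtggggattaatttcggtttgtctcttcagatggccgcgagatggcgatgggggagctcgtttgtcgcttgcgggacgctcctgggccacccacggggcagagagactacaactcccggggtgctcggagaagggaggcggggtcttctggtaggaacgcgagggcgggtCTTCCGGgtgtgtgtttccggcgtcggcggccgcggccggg
Each has 1 match near the annotated start, and Psme3 has another further upstream. RefSeq gave a promoter for 36 of the 44 members, and 16 of these (44.4%) held CCGGAAG on either strand, against 23.3% of the 5647 tested genes with a promoter and 8.45% of all 32851 promoters. The other motifs searched were found in shares close to those of the tested genes: CACGTG (E-box) in 11.1% of members against 12.3% of tested genes and 6.79% of all promoters, TGACNNNGC (antioxidant response core) in 16.7% against 16.0% and 11.5%, CCAAT in 38.9% against 42.8% and 36.1%, and TTCNNNGAA (STAT site) in 5.56% against 7.86% and 7.83%. The 16 also included members that did not pass, with limma log2 changes on both sides of 0, such as Psmc3ip at 0.41, Psmc2 at 0.0063 and Psmd2 at -0.15. Any link between the motif and the changes was not tested. The motifs were chosen after the expression values were known, and a match describes letters in a window.

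**Figure D2:**
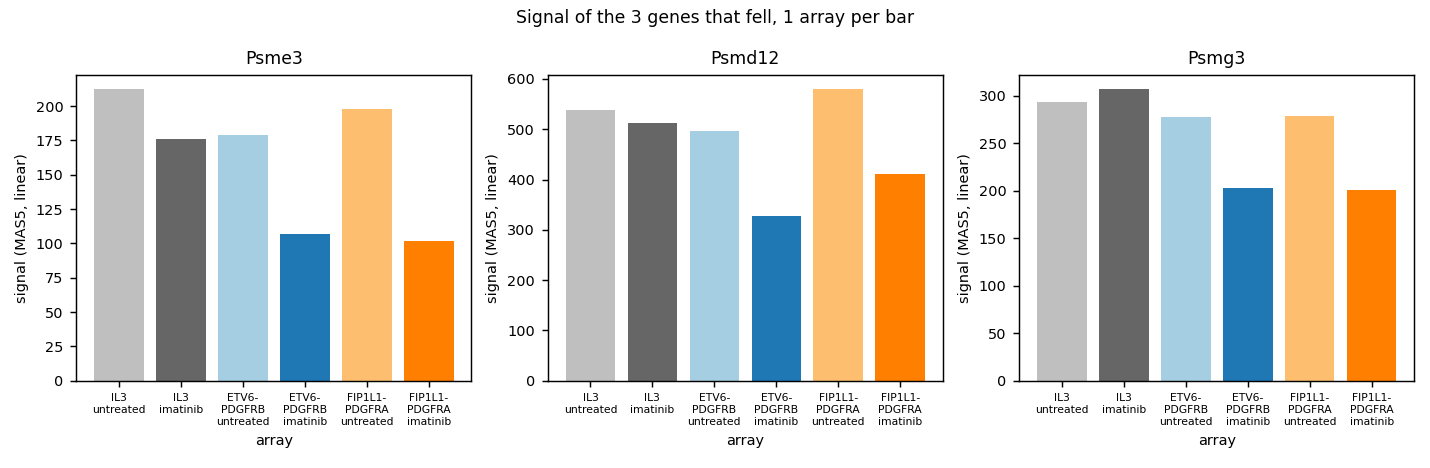
Linear MAS5 signals of Psme3, Psmd12 and Psmg3, 1 panel per gene and 1 bar per array, by line and treatment. In each panel both treated fusion arrays lie below the other 4.

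For 12 members both treated fusion arrays lay below the other 4 arrays, against 19.2% of the 6808 genes, and for 9 members both lay above, against 24.5%. The other 23 overlapped. The lower set was drawn from the 19S particle apart from Psmd5, Psmg3 and Psme3 (Psmc1, Psmc5, Psmd1, Psmd2, Psmd3, Psmd7, Psmd11, Psmd12 and Psmd14), and the higher set held Psma1, Psma6, Psmb1, Psmb3, Psmb4 and Psmb6 of the 20S core, the chaperones Psmd9 and Psmd10, and Psme3ip1. That division between particles was noticed in these values and was not tested.

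In the alpha ring, which guides substrates to the gate, none of the 8 genes passed the limma test. Their median log2 change was -0.043. Psma1 and Psma6 were at 0.23 and 0.19, Psma4 at -0.13, and Psma2, Psma3, Psma5 and Psma7 between -0.072 and 0.069. Ratios of single arrays were counted past a limit of 0.32 on the log2 scale in either direction, with no test. Psma1 was the only general alpha subunit past that limit in a line, with a log2 ratio of 0.34 in ETV6-PDGFRB and 0.13 in the FIP1L1-PDGFRA line. Testis-type Psma8 had signals of 35.7 to 50.2 and a change of -0.28 ± 0.090 (SE) with a limma adjusted p of 0.0745.

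The 7 beta ring genes also had no call, with a median log2 change of 0.14 and positive values for 5 of them. Among the catalytic subunits, Psmb6, the caspase-like site, was at 0.28 ± 0.087 (SE) with a limma adjusted p of 0.0711. Psmb5, the chymotrypsin-like site, was at 0.087 ± 0.092 (SE), and Psmb7, the trypsin-like site, at -0.058 ± 0.12 (SE). The changes of Psmb5 and Psmb7 were smaller than their SE, so a difference in direction was not shown. Psmb7 gave log2 ratios of -0.24 in ETV6-PDGFRB and 0.12 in the FIP1L1-PDGFRA line, 1 of 4 members whose responses in the fusion lines differed by more than 0.32 on the log2 scale; over all genes 28.7% did. The structural subunits Psmb1, Psmb3 and Psmb4 were at 0.17, 0.15 and 0.14, and Psmb2 at -0.18. For the 14 genes of both rings without Psma8 the median was 0.078, with 8 above 0. Scaling to the hybridisation controls turned the medians of both rings together and of the beta ring below 0, to -0.15 and -0.086, where all genes were at -0.17. With quantile normalisation these medians were 0.0020 and 0.064, against 0.041 for all genes. Both rings together then lay below the all-gene median, with 7 genes above 0.

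The 6 base ATPases, which unfold and thread the substrate, had no call and a median log2 change of -0.045. Psmc2 (Rpt1) had the smallest change of all members, with signals of 862 untreated and 869 treated in the IL3 vector line, 894 and 895 in the ETV6-PDGFRB line, and 860.4 and 867 in the FIP1L1-PDGFRA line. Its limma change was 0.0063 ± 0.084 (SE) with an adjusted p of 0.963, and the 6 arrays spanned 860.4 to 895. Psmc4 (Rpt3), at 382, 383, 345, 354, 358 and 353 in the same order, was also among the 3 smallest, at 0.010 ± 0.085 (SE). Psmc3 was at 0.13, and Psmc1, Psmc6 and Psmc5 at -0.096, -0.12 and -0.18. On the chosen probe sets, no ATPase passed 0.32 in either direction in any line. A second Psmc4 probe set had signals of 300, 380, 252, 329, 326 and 270 in the same order. Its log2 ratios were 0.38 in ETV6-PDGFRB, -0.27 in FIP1L1-PDGFRA and 0.34 in IL3 vector cells, and its limma change was 0.056 ± 0.20 (SE).

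The 11 non-ATPase subunits leaned lower: 9 were below 0, with a median log2 change of -0.15, and Psmd12 fell. Over all genes tested, 3096 of 6808 were below 0. In single lines, 10 of the 11 were below 0 in ETV6-PDGFRB (median -0.19) and 7 in FIP1L1-PDGFRA (median -0.090). In the IL3 vector pair 9 were also below 0, with a median of -0.020. Psmd1 and Psmd2, the large scaffolds of the base, were at -0.25 ± 0.092 (SE) and -0.15 ± 0.094 (SE) with limma adjusted p of 0.106 and 0.267, and the ubiquitin receptor Psmd4 at -0.016. Among lid genes, Psmd7, the partner of the deubiquitinase, was at -0.41 ± 0.13 (SE) and Psmd11 at -0.28 ± 0.089 (SE), with limma adjusted p of 0.0729 and 0.0771. Psmd14, the deubiquitinase, was at -0.11. Psmd8 was at 0.22, and Psmd13, another of the 3 smallest changes, had signals of 251, 242, 236, 215, 217 and 241, a range in which treated and untreated arrays overlapped, and a change of 0.009 ± 0.11 (SE). Over the 17 subunits of the 19S particle the median was -0.12, and 15 of them were below the all-gene median.

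The ratios of Psmd7 and Psmd6 differed between the fusion lines; the differences rest on 1 pair of arrays per line and were not tested. Psmd7 signals were 580.4 untreated and 590.1 treated in the IL3 vector line, 527 and 463 in the ETV6-PDGFRB line, and 664 and 428 in the FIP1L1-PDGFRA line, a log2 ratio of -0.63 in FIP1L1-PDGFRA and -0.19 in ETV6-PDGFRB cells. The FIP1L1-PDGFRA pair held both its highest and its lowest value. On the chosen probe sets, Psmd6 was the only member past 0.32 with opposite signs in these lines. Psmd6 signals were 698 untreated and 695 treated in the IL3 vector line, 719.9 and 570.3 in the ETV6-PDGFRB line, and 706 and 730.5 in the FIP1L1-PDGFRA line. Its log2 ratios were -0.34 in ETV6-PDGFRB and 0.050 in the FIP1L1-PDGFRA line, and the 1 low array was the treated ETV6-PDGFRB one. Another, dimmer Psmd6 probe set gave 48.6, 24.7, 32.2, 51.7, 45.6 and 44.5 in the same order and had ratios of the other sign, 0.68 and -0.036. Among the chosen probe sets, that of Psmd3, a lid scaffold, had the largest ratio of the IL3 vector pair. Psmd3 signals were 297 untreated and 233 treated in the IL3 vector line, 271 and 227 in the ETV6-PDGFRB line, and 234 and 220.0 in the FIP1L1-PDGFRA line. The untreated IL3 vector array was the highest of the 6, and the limma change of -0.17 ± 0.14 (SE) did not pass (adjusted p = 0.398).

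Psmd11 (Rpn6), a lid subunit that clamps the core and the cap together, was measured by 4 probe sets above the floor on every array. The brightest had signals of 1142 untreated and 1106 treated in the IL3 vector line, 1125 and 890.2 in the ETV6-PDGFRB line, and 1234 and 1063 in the FIP1L1-PDGFRA line. Of the 3 dimmer ones, those with signals of 374, 383, 394, 271, 407 and 313 and of 263, 272, 244, 159, 290.1 and 179 in the same order were lowest on both treated fusion arrays and past the threshold in limma, at -0.46 ± 0.092 and -0.66 ± 0.087 (SE), with adjusted p of 0.0246 and 0.01. The remaining probe set had signals of 345, 347, 229.8, 335, 446 and 297 and opposite ratios in the fusion lines, with a limma change of -0.021 ± 0.26 (adjusted p = 0.961). Over the members, 21 further probe sets of 16 genes were above the floor on all arrays; 17 had the sign of the chosen probe set and 16 lay within 0.2 of it on the log2 scale, with a median difference of 0.081.

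**Figure D3:**
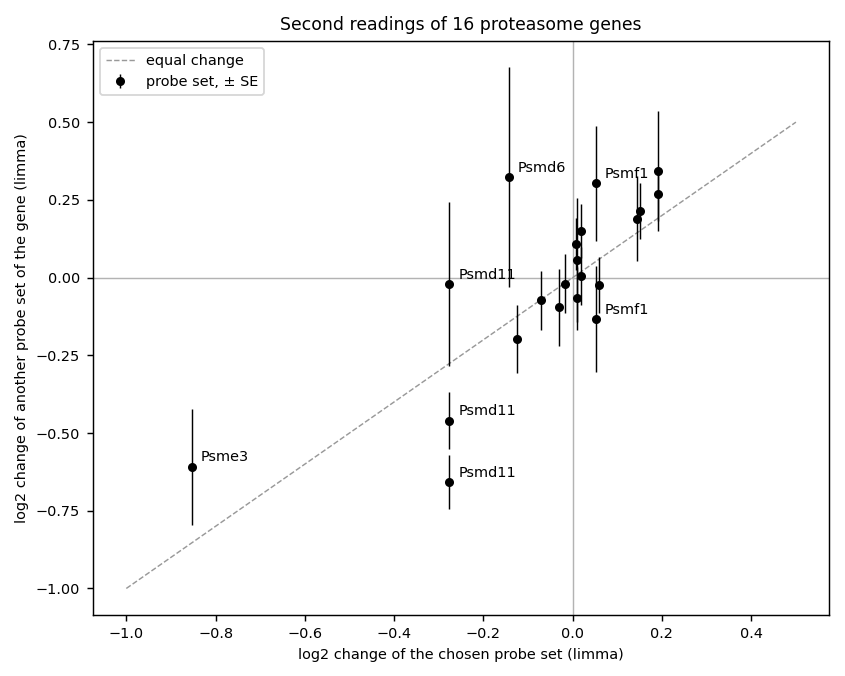
Limma log2 change with imatinib in the fusion lines from the chosen probe set of a gene (x axis) against that from each of its 21 further probe sets above the floor on all arrays (y axis), with bars of 1 standard error. Of the 21 points, 16 lie within 0.2 of the dashed line of equal change; the 3 further Psmd11 probe sets spread from -0.66 to -0.021.

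The assembly chaperones other than Psmg3 did not pass. Psmg4, the partner of Psmg3, had signals of 285 untreated and 299.9 treated in the IL3 vector line, 325 and 256 in the ETV6-PDGFRB line, and 318 and 285 in the FIP1L1-PDGFRA line. Its treated fusion arrays were not both below the IL3 vector arrays, and its limma change of -0.25 ± 0.096 (SE) had an adjusted p of 0.112. Psmg1 and Psmg2, which form the other chaperone pair of the alpha ring, were at -0.090 and 0.058, with signals of 540.0, 509, 539.7, 473, 432 and 435 for Psmg1 and 216, 225, 211, 208, 199 and 219 for Psmg2. Both overlapped between treated and untreated arrays. The 3 chaperones of the ATPase ring were Psmd5, Psmd9 and Psmd10. Psmd5 had signals of 480.2, 489, 421, 411, 427 and 416, lower in all 4 fusion arrays than in the IL3 vector pair, and its change with imatinib was -0.036. Psmd9 had 100.1, 109, 117, 125, 111 and 123 and a change of 0.12, with the drug-treated array the higher one in each of the 3 lines. Psmd10 (gankyrin) had 129.6, 126, 139.6, 146, 136 and 183; the treated FIP1L1-PDGFRA array was the highest, 1.35-fold over untreated, and the limma change was 0.25 ± 0.12 (SE) with an adjusted p of 0.176.

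Besides Psme3, Psme4, which encodes the activator PA200, had signals of 315 untreated and 357 treated in the IL3 vector line, 314 and 295 in the ETV6-PDGFRB line, and 325 and 355 in the FIP1L1-PDGFRA line. The treated array was the higher one in the IL3 vector and FIP1L1-PDGFRA lines and the lower one in ETV6-PDGFRB, and its limma change was 0.019. On the further Psme4 probe sets the treated ETV6-PDGFRB array was the higher one, with log2 ratios of 0.10 and 0.083. Psmf1 (PI31), first described as an inhibitor of the 20S core, had 171, 182, 197, 192, 165 and 182 in the same order and a change of 0.051. Its further probe sets above the floor on all arrays had limma changes of -0.13 ± 0.17 and 0.30 ± 0.19 (SE), and neither passed. Of the members that are not subunits, Psmc3ip, a recombination cofactor, had signals of 72.0, 61.9, 56.0, 71.8, 62.5 and 85.8, higher with imatinib in both fusion lines and lower in IL3 vector cells, with a limma change of 0.41 ± 0.11 (SE) and an adjusted p of 0.0513. Psme3ip1 was at 0.13.

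Within single lines and on the chosen probe sets, the members spread less widely around their median than all genes did. The members were above the floor on all 6 arrays, whereas the all-gene set also held genes close to the floor, such as Cd3g. The difference in spread, and the part of signal level in it, was not tested. In ETV6-PDGFRB cells the members' median log2 ratio of imatinib over untreated was -0.11 with an SD of 0.24 across genes, against 0.032 and 0.50 over all genes above the floor. Past 0.32 on the log2 scale, 7 members were lower (Psmd1, Psmd6, Psmd11, Psmd12, Psmg3, Psmg4 and Psme3), where 20.3% of all genes were, and 3 were higher (Psma1, Psmd8 and Psmc3ip), against 23.4%. In FIP1L1-PDGFRA cells the median was 0.052 with an SD of 0.26, against 0.051 and 0.51; 4 members were lower (Psmd7, Psmd12, Psmg3 and Psme3), against 18.7%, and 2 were higher (Psmd10 and Psmc3ip), against 23%. In IL3 vector cells the median was -0.031 with an SD of 0.10, against 0.0089 and 0.20; Psmd3 was lower, against 3.91% of all genes, and none was higher, against 5.26%. No member passed 2-fold in any line, where 4.47% of genes did in ETV6-PDGFRB cells and 5.16% in FIP1L1-PDGFRA cells. A floor at the 60th percentile left fewer dim genes in the all-gene set. Past 0.32, its lower share was then 2.06% for the IL3 vector line, 19.2% for ETV6-PDGFRB, 17.6% for FIP1L1-PDGFRA. Its higher share was 3.25%, 22% or 21.4% for these lines in turn. Scaling to the hybridisation controls moved the members' medians to -0.29 and -0.22 in ETV6-PDGFRB cells and FIP1L1-PDGFRA cells, where all genes were at -0.15 and -0.22, with 20 and 15 members lower past 0.32 (33.7% and 38.7% of all genes), and scaling to the mean moved the latter to -0.0012.

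Across the 44 genes, the ratios of the fusion lines had a Pearson correlation of 0.757 and a Spearman correlation of 0.753, with the same sign for 32 and opposite signs for 12; over 6640 genes the correlations were 0.770 and 0.70. These are correlations over genes, which are not independent replicates, and the arrays share their scaling.

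**Figure D4:**
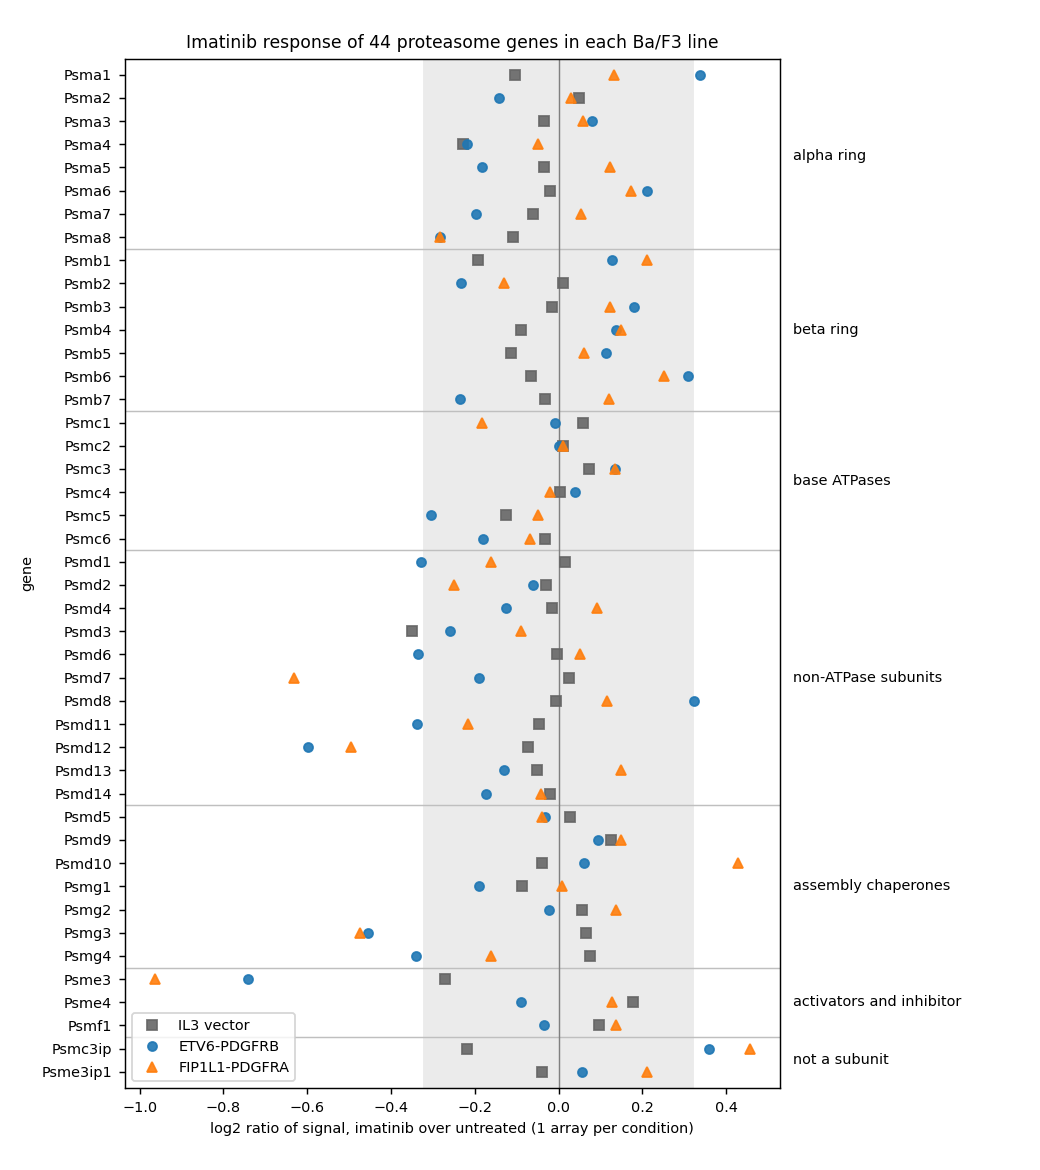
Log2 ratio of imatinib over untreated for each of the 44 genes in the IL3 vector, ETV6-PDGFRB and FIP1L1-PDGFRA lines, grouped by role, with 1 point per line and a grey band that reaches 0.32 to either side of 0. Psme3, Psmd12 and Psmg3 lie left of the band in both fusion lines, and Psmc3ip lies right of it in both.

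Without the drug, most general proteasome genes had ratios between lines within 0.32 of 0. These comparisons share the untreated IL3 vector array and use the chosen probe sets. ETV6-PDGFRB over IL3 vector cells had a median log2 ratio of -0.033 over the members and a range from -0.43 to 0.28, with 2 genes lower past 0.32 (Psmd8 and Psmc3ip) and none higher, where 11.9% and 16.9% of all genes were. Psmd8 (Rpn12), a lid subunit, had signals of 638 untreated and 635 treated in the IL3 vector line, 474 and 594 in the ETV6-PDGFRB line, and 599 and 649 in the FIP1L1-PDGFRA line, the untreated ETV6-PDGFRB array being the lowest. FIP1L1-PDGFRA over IL3 vector cells had a median of -0.023 and a range from -0.34 to 0.28, with Psmd3 lower and none higher, against 10.9% and 10.6%. Psmc6 (Rpt4) had the highest of these ratios, within 0.32 of 0, with signals of 612 untreated and 598 treated in the IL3 vector line, 619.7 and 546 in the ETV6-PDGFRB line, and 742 and 708 in the FIP1L1-PDGFRA line, where both FIP1L1-PDGFRA arrays exceeded the other 4. Some further probe sets differed by more, in both directions. A second Psma5 probe set had untreated signals of 913 in IL3 vector and 1221 in ETV6-PDGFRB cells. For the same arrays, a dimmer Psmf1 probe set had 53.5 and 85.9, and the dimmer Psmd6 one 48.6 and 32.2. A dimmer Psmc6 probe set had 85.1 in untreated IL3 vector and 124 in untreated FIP1L1-PDGFRA cells. On the chosen probe sets no member passed 2-fold, where 2.97% of genes did in ETV6-PDGFRB cells and 2.14% in FIP1L1-PDGFRA cells. With scaling to the hybridisation controls the members' medians were -0.15 and 0.13, and those of all genes -0.092 and 0.12.

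The immunoproteasome genes, which the name rule left out, had larger ratios between the untreated lines; their difference from the general genes was not tested. Psmb8, Psmb9 and Psmb10 encode the catalytic subunits that replace Psmb5, Psmb6 and Psmb7 in immune cells, and Psme1 a subunit of the PA28 alpha-beta cap. Psmb8 had signals of 532, 531, 1394, 1209, 1111 and 1187, Psmb9 of 306, 318, 1312, 1477, 992 and 1100.2 and Psmb10 of 218, 197, 1059, 566, 827 and 418, in the order of lines used above. Psme1 had 723, 732, 1498, 1604, 1218 and 1254. All 4 were higher on every fusion array than on both IL3 vector arrays. Untreated ETV6-PDGFRB cells exceeded IL3 vector cells by 2.62-, 4.28-, 4.86- and 2.07-fold in this order of genes, and untreated FIP1L1-PDGFRA cells did so by 2.09-, 3.24-, 3.79- and 1.68-fold. With imatinib, Psmb10 fell by 0.94 ± 0.097 (SE) on the log2 scale (limma adjusted p = 0.00694), while Psmb8, Psmb9 and Psme1 were at -0.055, 0.16 and 0.070 and did not pass. The general subunits Psmb5, Psmb6 and Psmb7 that they replace had untreated ratios to IL3 vector cells of -0.21, -0.13 and 0.00083 (log2) for the ETV6-PDGFRB line, and of 0.0044, 0.044 and -0.043 for the FIP1L1-PDGFRA line.

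**Figure D5:**
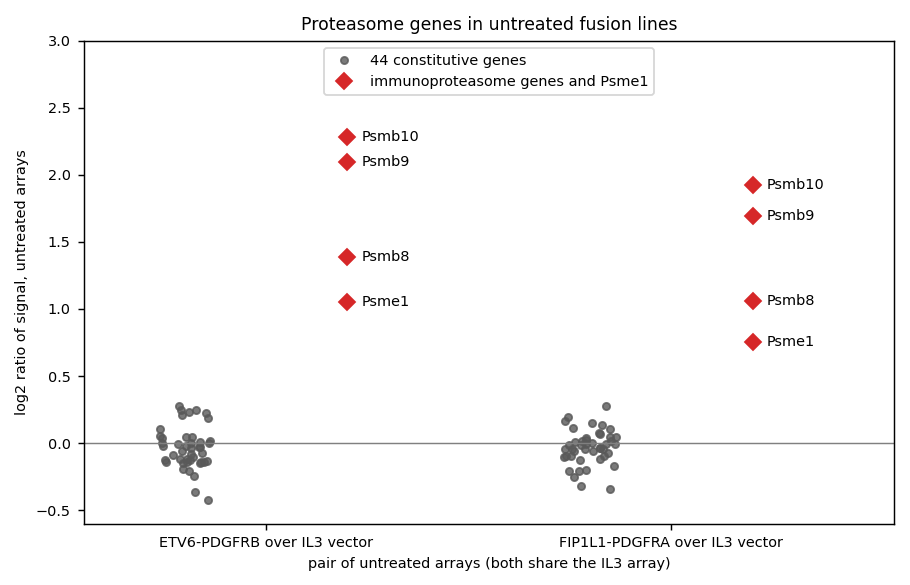
Log2 ratio of each untreated fusion line over the untreated IL3 vector line for the 44 proteasome genes (grey points) and for Psmb8, Psmb9, Psmb10 and Psme1 (red diamonds). The 44 genes lie between -0.43 and 0.28 and the other 4 between 0.75 and 2.28.

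Genes that act with the proteasome were described from lists. Of the proteins that bind or help to build the 26S particle, 10 genes were tested and 1 fell, where 12.4% of all genes did: Zfand5, a zinc finger protein that binds the proteasome, by 0.38 ± 0.097 (SE) on the log2 scale (limma adjusted p = 0.0457). Of the regulators of proteasome gene transcription, 8 were tested and 2 fell, against the same 12.4%: Mafg and Mafk, the small partners that NRF1 and NRF2 need to bind DNA. Mafg had signals of 79.0, 82.6, 76.0, 45.8, 81.4 and 55.8 and Mafk of 53.4, 54.7, 57.7, 33.8, 54.4 and 37.8 in the same order, with both treated fusion arrays lowest. Their limma changes were -0.64 ± 0.096 (SE) and -0.65 ± 0.10 (SE), with adjusted p of 0.0132 and 0.014. Nfe2l1, which encodes NRF1, had 69.0, 96.3, 119, 55.0, 68.6 and 68.4 and did not pass (limma adjusted p = 0.217); it was lower with imatinib in ETV6-PDGFRB cells, and the FIP1L1-PDGFRA pair differed little. Nfe2l3, Maf and Maff did not exceed the floor on any array. Of the 15 symbols listed for ubiquitin supply, activation and shuttling, 8 had no probe set naming a single gene. The other 7 were tested and none passed in limma. At an unadjusted p under 0.05 there were 3, Rad23b and Nploc4 lower and Ubqln2 higher. Over all genes, 19.1% were lower and 23.5% higher at that limit.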

How the data were processed

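The authors' deposited values were linear MAS5 signal intensities, 1 column per array, for which the submitters' processing notes name GCOS 1.4.0 and MAS5; the genome build was not given in the sources used here. Of 22690 probe sets, 20393 named 1 gene (12393 genes), 691 several and 1606 none. Each array's 50th percentile was found and their median, 20.1, served as floor: intensities below it were set to it, and log2 was taken. limma 3.58.1 (R 4.3.3) fitted the line as a block plus imatinib in the fusion lines over all 6 arrays for 6808 genes, those that exceeded it on 2 or more arrays (2 residual degrees of freedom and 3.10 from the prior; Benjamini-Hochberg over these genes, threshold 0.05). The interaction fit let the IL3 vector line respond too. Because nothing in the labels names separate cultures, p-values measure only the spread between these samples, and fusion lines stand in for replicates. The main fit gave the IL3 vector line no imatinib term, so the difference within that pair counted as spread too. Single-array ratios were counted past 0.32 on the log2 scale and 2-fold, with no test. The limma step was checked on simulated data with a common spread from the IL3 vector pair and equal effects in both fusion lines. Those data held no difference in response between the fusion lines, so the check does not test their use as replicates. All 44 symbols were the same in RefSeq's gene table. The members, gene lists and motifs were chosen with earlier results of these data known. Named by rule with values on all arrays were members that fell, the 3 smallest changes, the largest ratio of each comparison, members opposite in the fusion lines past 0.32, chaperones, activators and the inhibitor; Psmd7, Psmd11, Psmc3ip and the regulators shown with signals were added after their values were seen. Alternatives covered the floor, a pseudocount, scaling, probe set choice, the filter, the arrays fitted, the block, lines left out and the variance prior.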

Additional observations from a re-analysis of the deposited data

Results flagged for a closer look

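One of 4 probe sets of Psmd11 went in opposite directions in the fusion lines, with log2 ratios of imatinib over untreated of 0.542 (ETV6-PDGFRB) and -0.584 (FIP1L1-PDGFRA). The signal was 230 to 335 in the first line and 446 to 297 in the second, and 345 and 347 in the IL3 vector pair. The difference between the lines rests on 1 pair of arrays each and was not tested. The other 3 Psmd11 probe sets were lower with imatinib in both lines.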

How the results depend on the processing

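No called result changed direction under the alternatives run. Of the limma counts (3 members and 841 genes fell, 0 members and 916 genes rose), scaling to the hybridisation controls gave 13 members (29.5%) and 1880 genes (27.7%) that fell and 395 genes (5.82%) that rose, with 16 members changing sign and none of them called; that scaling also moved the members' median log2 ratios to -0.29 (ETV6-PDGFRB, 20 lower and 0 higher past 0.32, against 33.7% and 11.8% of all genes), -0.22 (FIP1L1-PDGFRA, 15 lower and 0 higher, against 38.7% and 8.82%), -0.15 (untreated ETV6-PDGFRB) and 0.13 (untreated FIP1L1-PDGFRA, 0 lower and 2 higher, against 4.89% and 20.3%); the medians of all genes moved with them, to -0.15, -0.22, -0.092 and 0.12. Without the filter on dim genes, 59 genes fell and 48 rose, and 0 members fell (7 lower and 6 higher at an unadjusted p under 0.05, against 1093 and 1308 of 12393 genes); a floor at the 40th percentile gave 588 that rose. Members that rose numbered 2 (Psmb6 and Psmc3ip) with a floor at the 60th percentile, with a pseudocount and with all probe sets of a gene, where 17.4%, 16.5% and 14.2% of all genes rose. With a variance trend, 6 members fell and 3 rose (13.6% and 6.82%, against 15.1% and 18.5% of all genes). With no replicate block (fusion or IL3 in place of the line), 451 genes fell and 345 rose, and 2 members fell. The 4 fusion arrays alone, with genes filtered over 6 arrays, a setting chosen after seeing the data, gave 471 and 418, and an adjusted p of 0.0628 for Psmg3. Leaving out either fusion line gave 0 genes and 0 members in each direction (at an unadjusted p under 0.05, 4 members lower and 1 higher without ETV6-PDGFRB, against 15.3% and 17.6% of all genes, and 7 lower and 2 higher without FIP1L1-PDGFRA, against 16.1% and 17.8%), with limma's adjusted p of Psme3, Psmd12 and Psmg3 from 0.0914 to 0.137; 1 pair of arrays then carries the test. Members higher past 0.32 in ETV6-PDGFRB cells numbered 1 with a pseudocount or quantile normalisation and 0 with mean scaling (19.2%, 24.1% and 19.5% of all genes). The mean log2 signal of all probe sets of a gene gave 2 members lower and 1 higher in the IL3 vector line. The all-gene shares at that setting were not computed. With the chosen probe sets they were 3.91% lower and 5.26% higher. Quantile normalisation gave 2 members lower in untreated FIP1L1-PDGFRA cells (11.5% of all genes). The causes of these differences were not tested, apart from fewer arrays in the fits that leave a line out. The dimmest member signals, those of Psma8, were 35.7 to 50.2, against a floor of 20.1.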
